A study of Mus musculus with 24 samples.

Results

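The 10 genes described here, Spink1, Gkn2, Pga5, Lgals2, Muc13, Clic6, Ugt2b34, Pla2g12b, Car4 and Enpp3, encode secreted or membrane-bound proteins, several of them known from the digestive tract. They were picked from 19938 measured genes because they read much higher in embryoid bodies or in the knockdown. All 10 were on the array, each with 1 probe set. The values that chose them, the differences between embryoid bodies and undifferentiated cells and between knockdown and control, are given as a description without a test, and no median or count of the 10 genes from those comparisons supports anything. Cells of D3, a mouse embryonic stem cell line, carried either a knockdown of the arginine methyltransferase gene Prmt1 (siPRMT1) or a scrambled sequence (siSCR) (whether stably: not given in the sources used here). Both lines were passaged at least 3 times on gelatin to remove feeder cells. RNA was taken from each line in 4 states. These were undifferentiated cells, embryoid bodies at day 4 (aggregates formed without the cytokine LIF), and day 4 embryoid bodies treated for 12 h. The treatment was either the vehicle DMSO or all-trans retinoic acid (ATRA, 5 micromol). The 8 groups were therefore siPRMT1 and siSCR in each of the 4 states, with 3 arrays a group, which the labels call biological replicates. Every level below is a log2 expression value, and every difference is in log2 units, so that 1 unit is a doubling.

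As background, several of these proteins work at the surface or in the lumen of epithelia. The early mouse embryo has an absorptive and secretory epithelium of its own, the visceral endoderm, which takes up nutrients and secretes plasma proteins, and embryoid bodies form a layer of such cells on their outside. Spink1 is a trypsin inhibitor secreted by the pancreas, Gkn2 a gastrokine and Pga5 a pepsinogen of the stomach, Lgals2 a galectin that binds galactosides, and Pla2g12b a member of the phospholipase A2 family without catalytic activity. Muc13 is a transmembrane mucin, Car4 a carbonic anhydrase anchored in the membrane, Enpp3 an ectonucleotide pyrophosphatase, Clic6 a member of the chloride intracellular channel family and Ugt2b34 a UDP-glucuronosyltransferase of the endoplasmic reticulum. Retinoic acid binds nuclear receptors that act on DNA as pairs with RXR.

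The RefSeq promoter table for GRCm38.p6 held entries for 7 of the 10 genes, with 2 start sites for Muc13, so that 8 windows of 250 bases upstream of a start were searched on both strands. The windows of Gkn2 and Pla2g12b are shown because these genes had the most similar profiles over the embryoid body arrays, and that of Lgals2 because its profile differed from those of the others. Each is printed 5′ to 3′ on the gene's own strand, and capitals mark matches to the motifs searched.
Gkn2 (chr6:87373115-87373364, plus strand): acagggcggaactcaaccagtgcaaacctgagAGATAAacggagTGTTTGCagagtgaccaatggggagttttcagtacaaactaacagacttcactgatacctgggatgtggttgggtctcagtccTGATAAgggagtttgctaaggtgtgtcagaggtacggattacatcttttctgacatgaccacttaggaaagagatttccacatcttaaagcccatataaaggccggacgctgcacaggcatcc
Pla2g12b (chr10:59403435-59403684, plus strand): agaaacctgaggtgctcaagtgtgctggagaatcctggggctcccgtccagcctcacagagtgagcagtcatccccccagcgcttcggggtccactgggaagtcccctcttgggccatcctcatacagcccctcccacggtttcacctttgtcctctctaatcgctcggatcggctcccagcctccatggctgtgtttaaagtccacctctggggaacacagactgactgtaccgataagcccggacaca
Lgals2 (chr15:78855530-78855779, minus strand): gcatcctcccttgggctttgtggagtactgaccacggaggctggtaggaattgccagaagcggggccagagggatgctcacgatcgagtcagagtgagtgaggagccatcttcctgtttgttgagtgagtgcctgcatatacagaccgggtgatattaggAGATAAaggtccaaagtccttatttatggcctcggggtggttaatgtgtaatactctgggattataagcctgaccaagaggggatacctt
The letters AGATAA or TGATAA, which GATA factors bind, occurred in 2 of the 8 windows, those of Gkn2 and Lgals2, and in 16.6% of all 32851 promoters of the table. In Gkn2 they lay 218 to 213 and 123 to 118 bases upstream of the start, and in Lgals2 90 to 85 bases upstream. The forkhead motif TGTTTNC occurred in the windows of Gkn2, 206 to 200 bases upstream, and of the first Muc13 start, and in 17.8% of all promoters. The letters CAAAGTCCA, one form of the HNF4A motif, were found in the window of the second Muc13 start, against 0.384% of all promoters. Neither one form of the HNF1 motif nor the direct repeat of retinoic acid receptors with 5 bases between its copies occurred in the 8 windows, against 0.371% and 0.776% of all promoters. The window of Pla2g12b held none of these letters. A match describes these letters only.

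The 24 arrays were close within groups, with correlations over genes of 0.990 to 0.999. The 6 siSCR arrays of the DMSO and ATRA states stood apart from the other 18: on the first principal component, which held 52.2% of the variance, they lay between 50.1 and 61.2, against -26.8 to -9.44, and their SD over genes was 1.98 to 2.07, against 2.15 to 2.27. Across this border the siPRMT1 minus siSCR medians were -0.30 for the dimmest 25% of genes and 0.24 for the brightest 25% with DMSO, and -0.36 and 0.29 with ATRA. Knockdown differences in these 2 states therefore cannot be told apart from this border between arrays, and they are given beside values from arrays scaled to one SD. That scaling moved the median of all genes from -0.090 to 0.014 in the DMSO knockdown comparison, from -0.11 to 0.015 in the ATRA one and from -0.043 to 0.071 in siPRMT1 embryoid body formation. Prmt1 itself was at 38.6% of its siSCR level in undifferentiated siPRMT1 cells, 64.6% at day 4, 46.2% with DMSO and 36.7% with ATRA.

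All 10 genes read higher at day 4 than in undifferentiated cells of the same line, with all 3 arrays above the other 3 in siPRMT1 and in siSCR. Over all genes that held for 28.5% in siPRMT1 and 21% in siSCR. The differences ran from 0.67 (Car4) to 4.05 (Pga5) in siPRMT1, with a median of 3.21, and from 1.22 (Ugt2b34) to 3.42 (Lgals2) in siSCR, with a median of 2.34. The medians of all genes were -0.043 in siPRMT1 and 0.00067 in siSCR. Between lines, 8 of the 10 lay higher in siPRMT1 at day 4, with all 3 arrays above, 1 lay lower (Lgals2) and 1 overlapped (Enpp3), while 21.5% of all genes lay wholly above and 19.1% wholly below. In bulk RNA of this kind, fewer cells of a type and less RNA per cell cannot be told apart.

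**Figure D1:**
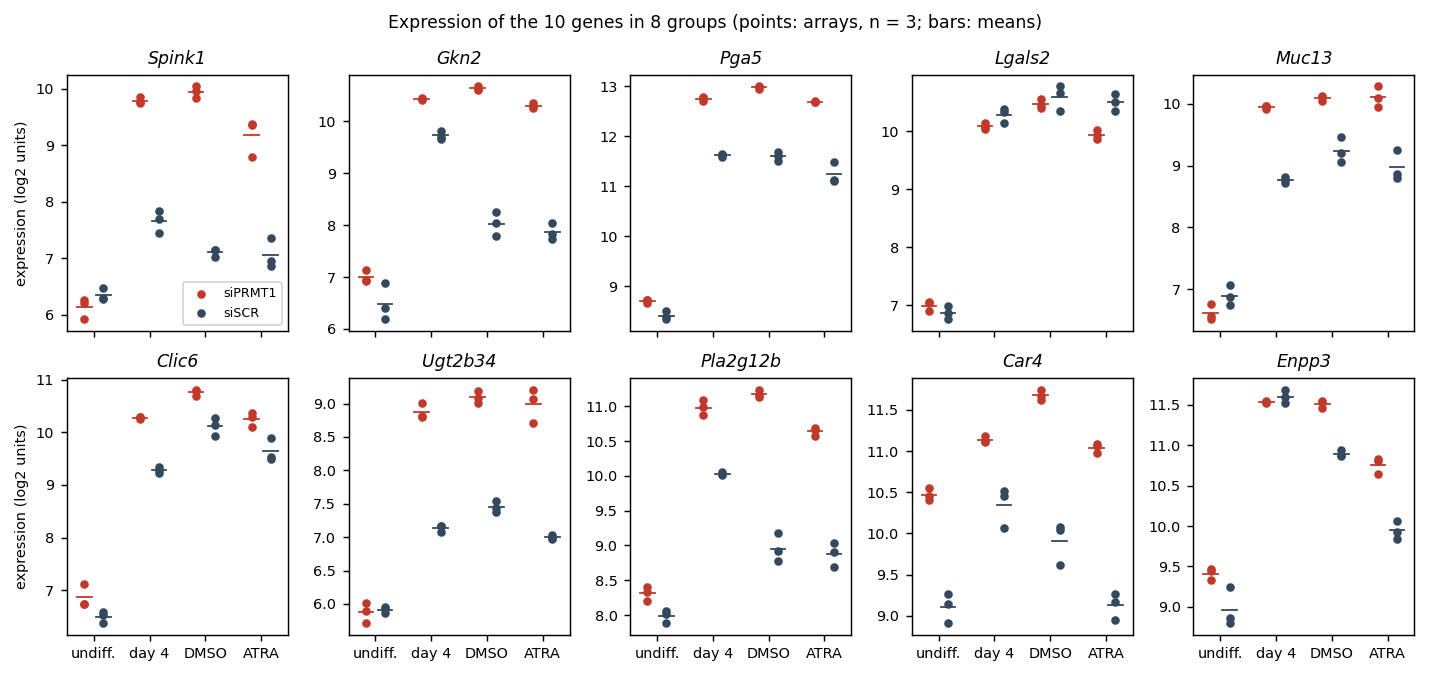
Log2 expression (vertical axis, a scale of its own per gene) of the 10 genes in undifferentiated cells, day 4 embryoid bodies, and embryoid bodies with DMSO or ATRA (horizontal axis); points are arrays, 3 a group, bars are means, red is siPRMT1 and blue siSCR. Spink1 averages 9.79 in siPRMT1 and 7.66 in siSCR at day 4, against 6.14 in siPRMT1 and 6.35 in siSCR before, while the lines differ in Lgals2 by at most 0.55 log2 units (with ATRA).

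Spink1 was the gene whose lines differed most at day 4. It read 9.86, 9.75 and 9.76 in siPRMT1 day 4 embryoid bodies, against 6.22, 6.27 and 5.92 in undifferentiated siPRMT1 cells. The corresponding values were 7.45, 7.70 and 7.83 in siSCR at day 4, against 6.48, 6.29 and 6.30 in undifferentiated siSCR cells. In undifferentiated cells its siPRMT1 arrays all lay just below the siSCR arrays, and at day 4 they lay far above, a 4.38-fold ratio. With DMSO it read 9.96, 9.83 and 10.04 in siPRMT1, against 7.16, 7.14 and 7.03 in siSCR. With ATRA it read 9.38, 9.35 and 8.80 in siPRMT1, against 7.35, 6.87 and 6.95 in siSCR. The groups did not overlap in either state, and the third siPRMT1 ATRA array was the lowest of its group.

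Gkn2 differed less between lines at day 4 than after 12 h in DMSO. It read 10.43, 10.45 and 10.42 in siPRMT1 at day 4, against 7.15, 6.92 and 6.94 in undifferentiated siPRMT1 cells. In siSCR it read 9.71, 9.66 and 9.82 at day 4, against 6.40, 6.88 and 6.18 in undifferentiated cells. At day 4 both lines stood higher, 10.8-fold in siPRMT1 and 9.46-fold in siSCR. With DMSO the values were 10.61, 10.63 and 10.68 in siPRMT1, against 7.80, 8.04 and 8.26 in siSCR, and with ATRA 10.35, 10.30 and 10.25 in siPRMT1, against 8.04, 7.72 and 7.82 in siSCR. The siSCR arrays of these 2 states lay below the siSCR day 4 arrays, and the siPRMT1 minus siSCR difference was 2.61 with DMSO, against 0.70 at day 4. After scaling to one SD it was 2.62 with DMSO and 0.74 at day 4.

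Pla2g12b followed the same order of groups as Gkn2. It read 11.08, 10.98 and 10.87 in siPRMT1 at day 4, against 8.40, 8.34 and 8.20 in undifferentiated siPRMT1 cells. In siSCR it read 10.01, 10.06 and 10.02 at day 4, against 8.06, 7.88 and 8.02 in undifferentiated cells. In all 4 states the siPRMT1 arrays lay above the siSCR arrays. With DMSO the siPRMT1 arrays read 11.14, 11.24 and 11.17, against 8.92, 8.77 and 9.18 in siSCR. With ATRA they read 10.66, 10.69 and 10.57, against 9.03, 8.69 and 8.90 in siSCR. Over the 18 embryoid body arrays Gkn2 and Pla2g12b had a Pearson r of 0.984, the highest of the 45 pairs of members. Both genes read lower in the siSCR arrays that stood apart than at siSCR day 4. The same arrays served to choose the genes, so this r is a description only.

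Pga5, the pepsinogen, had the largest day 4 difference of the 10 genes in siPRMT1. It read 12.79, 12.76 and 12.71 in siPRMT1 at day 4, against 8.72, 8.67 and 8.72 in undifferentiated siPRMT1 cells. In siSCR it read 11.59, 11.64 and 11.63 at day 4, against 8.49, 8.38 and 8.33 in undifferentiated cells. These were 16.6-fold and 9.3-fold ratios. With DMSO it read 12.95, 12.99 and 13.00 in siPRMT1, against 11.69, 11.50 and 11.60 in siSCR, and with ATRA 12.69, 12.70 and 12.69 in siPRMT1, against 11.49, 11.13 and 11.10 in siSCR. Its siPRMT1 arrays lay above the siSCR arrays in all 4 states, by 0.30 in undifferentiated cells, 1.14 at day 4, 1.38 with DMSO and 1.45 with ATRA. After scaling to one SD the last 2 differences were 1.18 and 1.24.

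Lgals2 was high in embryoid bodies of both lines, and its mean was lower in siPRMT1 in each embryoid body state. It read 10.04, 10.06 and 10.14 in siPRMT1 at day 4, against 6.90, 7.05 and 7.04 in undifferentiated siPRMT1 cells. In siSCR it read 10.15, 10.34 and 10.37 at day 4, against 6.76, 6.98 and 6.86 in undifferentiated cells. The siPRMT1 day 4 arrays lay just below the siSCR arrays, a difference of -0.20, and the groups of undifferentiated cells overlapped. With DMSO it read 10.44, 10.40 and 10.56 in siPRMT1, against 10.77, 10.34 and 10.66 in siSCR, which overlapped. With ATRA it read 10.02, 9.87 and 9.93 in siPRMT1, against 10.64, 10.49 and 10.35 in siSCR, with all siPRMT1 arrays below. Over the 18 embryoid body arrays its r with each of the other 9 genes was below 0, from -0.597 with Gkn2 to -0.0095 with Clic6. The other 36 pairs were all above 0. These arrays served to choose the genes and include the siSCR arrays that stood apart, so the r values are a description only.

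Among the membrane proteins, Car4 was the gene with the clearest difference before differentiation. It read 10.55, 10.45 and 10.41 in undifferentiated siPRMT1 cells, against 9.26, 8.91 and 9.14 in siSCR cells, a 2.58-fold ratio. At day 4 it read 11.11, 11.12 and 11.18 in siPRMT1, against 10.06, 10.51 and 10.45 in siSCR. Undifferentiated siPRMT1 cells thus already reached the level of siSCR embryoid bodies, and Car4 was the only one of the 10 genes whose undifferentiated siPRMT1 arrays overlapped siSCR day 4 arrays. With DMSO it read 11.67, 11.62 and 11.74 in siPRMT1, against 10.04, 9.62 and 10.07 in siSCR. With ATRA it read 11.09, 11.06 and 10.98 in siPRMT1, against 9.26, 9.17 and 8.95 in siSCR. The siSCR ATRA arrays overlapped those of undifferentiated siSCR cells.

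Enpp3 read at one level at day 4 in both lines, and the lines stood apart with DMSO and with ATRA. It read 11.53, 11.55 and 11.54 in siPRMT1 at day 4, against 11.59, 11.52 and 11.69 in siSCR, which overlapped, and centring the arrays turned the sign of this difference from -0.061 to 0.020. In undifferentiated cells it read 9.47, 9.44 and 9.33 in siPRMT1, against 9.24, 8.86 and 8.80 in siSCR. The siPRMT1 arrays lay above the siSCR arrays in the other three states. With DMSO the values were 11.53, 11.46 and 11.55 in siPRMT1, against 10.94, 10.88 and 10.86 in siSCR. With ATRA they were 10.80, 10.83 and 10.64 in siPRMT1, against 10.07, 9.93 and 9.84 in siSCR. From day 4 to DMSO the mean changed by -0.025 in siPRMT1 and by -0.71 in siSCR. The siSCR step crosses the border between arrays, from which it cannot be told apart. After scaling to one SD the siPRMT1 minus siSCR difference was 0.48 with DMSO and 0.73 with ATRA. ATRA arrays of both lines lay below all DMSO arrays of their own line.

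Muc13, Clic6 and Ugt2b34 were low in undifferentiated cells of both lines and stood higher in siPRMT1 in every embryoid body state. Muc13 averaged 9.95 ± 0.028 in siPRMT1 and 8.76 ± 0.054 in siSCR at day 4 (SD, n = 3 each), against 6.61 ± 0.13 in siPRMT1 and 6.89 ± 0.16 in siSCR before differentiation. Clic6 averaged 10.28 ± 0.025 in siPRMT1 and 9.28 ± 0.06 in siSCR at day 4, against 6.87 ± 0.22 in siPRMT1 and 6.50 ± 0.11 in siSCR before. Ugt2b34 averaged 8.88 ± 0.12 in siPRMT1 and 7.13 ± 0.052 in siSCR at day 4, against 5.87 ± 0.15 in siPRMT1 and 5.92 ± 0.045 in siSCR before. The siPRMT1 minus siSCR differences with DMSO and with ATRA were 0.86 and 1.14 for Muc13, 0.64 and 0.62 for Clic6, and 1.64 and 2.00 for Ugt2b34. All 3 genes kept their sign after scaling to one SD. In undifferentiated cells the lines overlapped for Muc13 and Ugt2b34, and the siPRMT1 arrays of Clic6 lay above.

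Counted over the 10 genes, the siPRMT1 arrays lay wholly above the siSCR arrays for 6 genes in undifferentiated cells, 8 at day 4, 9 with DMSO and 9 with ATRA. Over all genes the shares wholly above were 15.4%, 21.5%, 32.6% and 31.7%, in the same order of states. They lay wholly below for Spink1 in undifferentiated cells and for Lgals2 at day 4 and with ATRA, against 20%, 19.1% and 34.3% of all genes. The median difference of the 10 genes was 0.31, 0.97, 1.51 and 1.61 in the 4 states, against 0.0061, -0.016, -0.090 and -0.11 for all genes. After scaling to one SD, the differences with DMSO and with ATRA were 2.90 and 2.24 for Spink1, 2.18 and 1.75 for Pla2g12b, 1.67 and 1.87 for Car4, 0.48 and 0.73 for Enpp3 and -0.22 and -0.65 for Lgals2. The highest of the 8 group means was that of siPRMT1 with DMSO for 7 genes, siPRMT1 with ATRA for Muc13, siSCR with DMSO for Lgals2 and siSCR at day 4 for Enpp3. The top group and the next did not overlap for Gkn2, Pga5, Clic6, Pla2g12b and Car4, and overlapped for the other 5. The share of all genes for which this held was not counted, so this order is a description only.

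**Figure D2:**
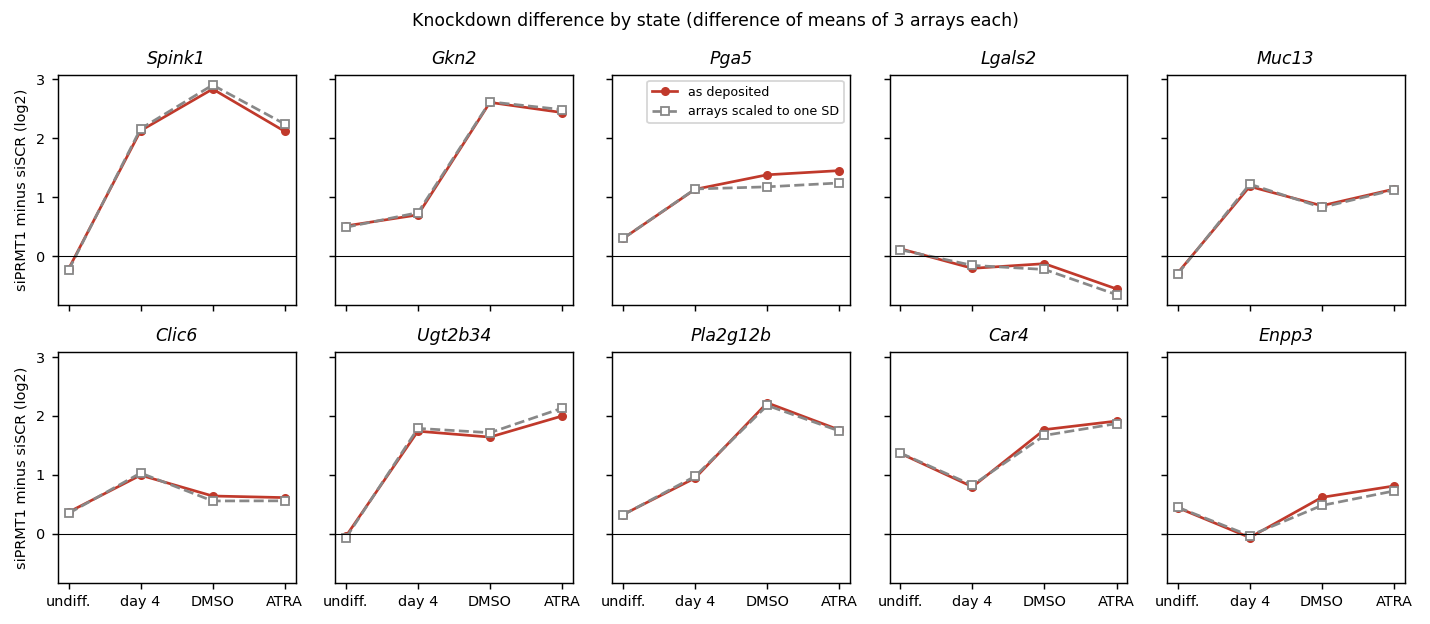
Difference siPRMT1 minus siSCR (vertical axis, log2 units) in the 4 states (horizontal axis) for each of the 10 genes, as the difference of means of 3 arrays each; red circles are the values as deposited and grey squares those from arrays scaled to one SD. Spink1, Muc13 and Ugt2b34 pass from below 0 in undifferentiated cells to above 0 in embryoid bodies, Car4 is at 1.37 before differentiation, and Lgals2 lies at -0.55 with ATRA.

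The digestive organs that the names of these genes recall were checked through other genes. Of 16 measured intestine genes, 3 rose at day 4 in siPRMT1 (Isx 1.55, Lgals4 1.29 and Slc5a1 0.56), 2 fell (Cdx1 -0.39 and Muc2 -0.33) and 11 did not pass the limma test at an adjusted p under 0.05. In siSCR 1 rose (Isx 0.52), 1 fell (Cdx1 -0.50) and 14 did not pass. Of 14 stomach genes, 2 rose in siPRMT1 (Gkn1 1.70 and Pgc 0.45) and 3 fell. In siSCR 3 rose (Gkn1 1.32, Pgc 0.41 and Sox2 0.36) and 0 fell, and Sox2 is also among the stem cell genes below. Of 10 pancreatic acinar genes 0 rose in either line, and 1 fell in siPRMT1. The 3 stomach falls and the acinar fall in siPRMT1 no longer passed after quantile normalization, median centring or scaling to one SD, under each of which 1 acinar gene rose in siPRMT1. Among all genes 23% rose and 18.4% fell in siPRMT1, and 14.5% rose and 13.7% fell in siSCR. The list medians lay between -0.16 and 0.034, and at most 3 genes of each of these lists rose in either line, or 4 intestine genes in siPRMT1 after any of these 3 scalings. These organs are not used to name the 10 genes.

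Genes known from visceral endoderm did move at day 4. Of 21 measured, 19 rose in siPRMT1 and 0 fell, with a median of 1.61, and 15 rose in siSCR and 2 fell, with a median of 0.68. The largest rises were Ttr 4.31, Lrp2 4.18, Apoa1 3.06 and Cubn 2.58 in siPRMT1, with limma adjusted p-values of 1.79e-14 or lower. In siSCR they were Lrp2 3.46, Ttr 3.19, Cubn 2.35 and Apoa1 1.48. Ttr carries thyroid hormone and retinol-binding protein, Lrp2 and Cubn are endocytic receptors, and Apoa1 is an apolipoprotein. Between lines at day 4, 17 of the 21 were higher in siPRMT1 and 0 lower, led by Cer1 1.88, Apoa1 1.70, Ttr 1.33 and Apob 1.13, against 11.4% higher and 7.01% lower among all genes. The mean level of the list was 9.67 to 9.81 over siPRMT1 day 4 arrays and 8.91 to 9.11 over siSCR day 4 arrays, against 8.05 to 8.16 in undifferentiated siPRMT1 and 8.02 to 8.05 in undifferentiated siSCR cells. This list was known to rise in these data when it was set beside the 10 genes, and its part in their levels was not tested.

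Fibroblast and feeder genes moved the other way. Of 17 measured, 14 fell at day 4 in each line, and 1 rose in siPRMT1 and 0 in siSCR. Their mean level was 8.46 to 8.48 over siPRMT1 day 4 arrays and 8.60 to 8.75 over siSCR day 4 arrays, against 9.28 to 9.33 in undifferentiated siPRMT1 and 9.64 to 9.68 in undifferentiated siSCR cells. Of 12 stem cell genes 2 rose and 6 fell in siPRMT1, and 4 rose and 2 fell in siSCR, and of 7 blood genes 2 fell in each line. The part of these lists in the differences of the 10 genes was not tested.

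**Figure D3:**
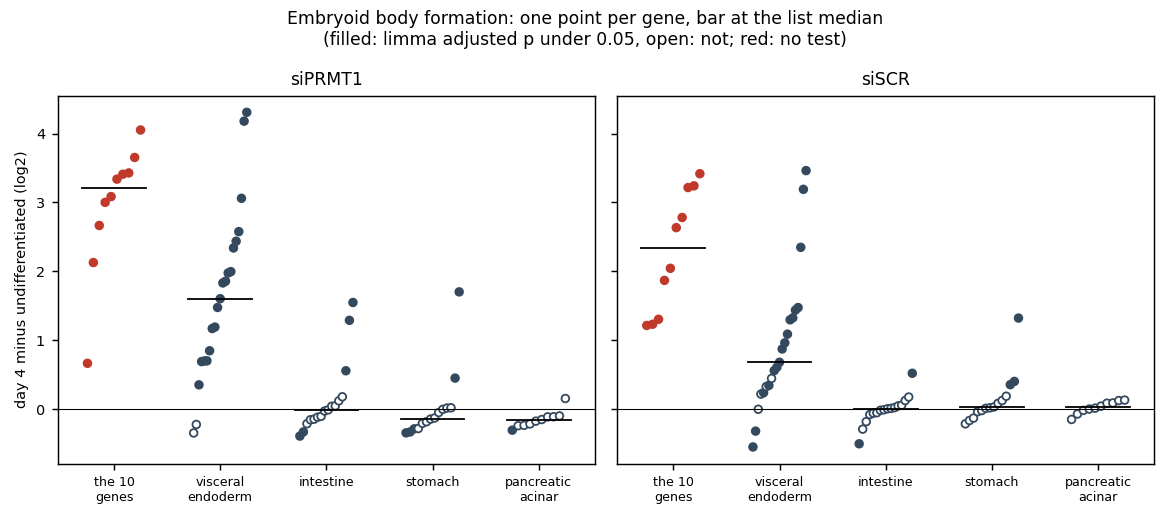
Day 4 minus undifferentiated (vertical axis, log2 units) for the 10 genes, in red and with no test, and for the measured genes of 4 lists, in blue, in siPRMT1 (left) and siSCR (right); each point is a gene, bars are list medians, filled points passed the limma test and open points did not. The 10 genes and most visceral endoderm genes lie above 0, and most intestine, stomach and acinar genes lie close to 0.

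Within each line, relatives of the 10 genes in the same protein families rose and fell at day 4 in shares close to those of all genes. Some of them, such as Gkn1, were also counted among the stomach or intestine genes above. Of 83 measured relatives, 19 rose and 19 fell at day 4 in siPRMT1, against 23% and 18.4% of all genes, and 14 rose and 12 fell in siSCR, against 14.5% and 13.7%. The falls in siPRMT1 depended on the scaling, with 15 after quantile normalization, 10 after median centring and 12 after scaling to one SD. The calls over all genes moved too. In siPRMT1 55.53% of them were higher in the fit as reported, 74.95% after centring and 71.64% after scaling to one SD. In both lines 11 relatives rose and 9 fell, against 8.85% and 7.49% of all genes. Gkn1, the gastrokine gene beside Gkn2 on GRCm38.p6, rose in both lines, while Gkn3 on the other side did not pass in either. Among the others that rose in both were Pla2g7, a phospholipase that cleaves platelet-activating factor (1.99 in siPRMT1 and 2.84 in siSCR), Car8 (1.11 and 1.58), Car14 (1.28 and 0.68), Clic5 (1.25 and 1.14) and Spink10 (0.87 and 0.84). Among those that fell in both were Muc1, a transmembrane mucin like Muc13 (-0.72 and -0.68), Pla2g4a, a cytosolic phospholipase A2 (-1.66 and -2.38), and the galectin Lgals1 (-0.73 and -0.79). Between lines at day 4, 11 of the 83 were higher in siPRMT1 and 7 lower, against 11.4% and 7.01% of all genes, or 14 and 4 after median centring. Of the calls over all genes in that comparison 61.92% were higher, or 82.88% after centring. Of 15 carbonic anhydrase relatives of Car4, 4 were higher there (Car2 0.68, Car3 0.93, Car7 1.21 and Car14 0.61) and 3 lower (Car8 -0.33, Car11 -0.34 and Car13 -0.50). Of the 20 nearest measured protein-coding neighbours, 1 on each side of each gene, 8 rose and 2 fell at day 4 in each line, against the shares of all genes given above for day 4.

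ATRA against its vehicle was not among the comparisons that chose the genes, so it was tested. It does share the DMSO and ATRA arrays with them. For 7 of the 10 genes siPRMT1 with DMSO had the highest group mean, and those arrays are the baseline here. Picking genes that read high in those arrays favours falls from them in siPRMT1, so its counts are not independent of the choice. In siPRMT1 embryoid bodies 7 of the 10 genes fell with ATRA, 0 rose and 3 did not pass, where 5.94% of all genes fell and 6.05% rose. In siSCR 5 fell, 0 rose and 5 did not pass, where 12.2% fell and 11.2% rose. At an unadjusted limma p under 0.05, either way, the numbers were 8 in siPRMT1 and 6 in siSCR, against 22.6% and 36.2% of all genes. Pga5, Clic6, Car4 and Enpp3 fell in both lines, as did 3.38% of all genes. The median change of the 10 genes was -0.51 in siPRMT1 and -0.31 in siSCR, and that of all genes 0.025 and 0.028.

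Enpp3 fell furthest over both lines. Its change was -0.76 ± 0.0885 in siPRMT1 (limma adjusted p = 2.64e-06) and -0.95 ± 0.0885 in siSCR (adjusted p = 1.74e-07), both ± SE with 3 arrays a group. Car4 fell by 0.64 in siPRMT1 (SE 0.12, limma adjusted p = 0.000806) and by 0.78 in siSCR (SE 0.12, adjusted p = 9.13e-05). Clic6 and Pga5 fell by smaller amounts: Clic6 by 0.50 in siPRMT1 and 0.47 in siSCR, and Pga5 by 0.29 in siPRMT1 and 0.36 in siSCR. Their limma adjusted p-values were 0.00406 and 0.00494 for Clic6 and 0.0138 and 0.00203 for Pga5. After 12 h of ATRA Enpp3 was at 59.2% of its DMSO level in siPRMT1 and 51.8% in siSCR.

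Spink1, Lgals2 and Pla2g12b fell in siPRMT1 and did not pass in siSCR. Spink1 changed by -0.77 ± 0.142 in siPRMT1 (limma adjusted p = 0.000645) and by -0.05 ± 0.142 in siSCR (adjusted p = 0.826). With DMSO its mean was 9.94 in siPRMT1 and 7.11 in siSCR, against array medians of 7.47 to 7.67. Whether the low siSCR level left less room for a fall was not tested. Pla2g12b changed by -0.54 in siPRMT1 (limma adjusted p = 0.000298) and by -0.08 in siSCR (adjusted p = 0.562). Lgals2 changed by -0.53 in siPRMT1 (limma adjusted p = 0.000607) and by -0.099 in siSCR (adjusted p = 0.486). Ugt2b34 was the reverse, at -0.099 in siPRMT1 (limma adjusted p = 0.618) and -0.46 in siSCR (adjusted p = 0.00223). Muc13 and Gkn2 passed in neither line, and median centring turned Muc13 in siPRMT1 to -0.021. They stood at 0.012 and -0.34 in siPRMT1 (limma adjusted p = 0.968 and 0.102) and -0.27 and -0.17 in siSCR (adjusted p = 0.0974 and 0.363).

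The ATRA changes of the 2 lines were then compared directly. That comparison equals the knockdown difference with ATRA less that with DMSO, and both of these were among the comparisons that chose the genes. Its siSCR arrays stood apart from the other arrays, and its siPRMT1 arrays did not. The intervals and p-values below are therefore not independent of the choice of genes, and the part of the border was not tested. For 0 of the 10 genes did the difference between lines pass the limma test, where over all genes 646 (3.24%) passed. At an unadjusted limma p under 0.05 the number was 4 of the 10, against 17.4% of all genes. The differences, siPRMT1 change minus siSCR change, with 95% intervals were -0.72 (-1.14 to -0.30) for Spink1, -0.46 (-0.73 to -0.19) for Pla2g12b and -0.43 (-0.71 to -0.14) for Lgals2. Their limma adjusted p-values were 0.0551, 0.0597 and 0.0952. For Ugt2b34 the difference was 0.36 (0.069 to 0.64), with a limma adjusted p of 0.175. For these 4 genes the call turned on few arrays. Without siPRMT1 ATRA replicate 3, Ugt2b34 passed with 0.50 (limma adjusted p = 0.0192), and without siSCR DMSO replicate 3, Pla2g12b passed with -0.57 (adjusted p = 0.012). Spink1 passed without siSCR ATRA replicate 2 (-0.81, limma adjusted p = 0.033), without siSCR ATRA replicate 3 (-0.77, adjusted p = 0.0492) and without siPRMT1 undifferentiated replicate 3 (-0.72, adjusted p = 0.0497). Pla2g12b also passed without siSCR ATRA replicate 2 (-0.55, limma adjusted p = 0.0191), and Lgals2 without siSCR DMSO replicate 1 (-0.52, adjusted p = 0.0444).

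**Figure D4:**
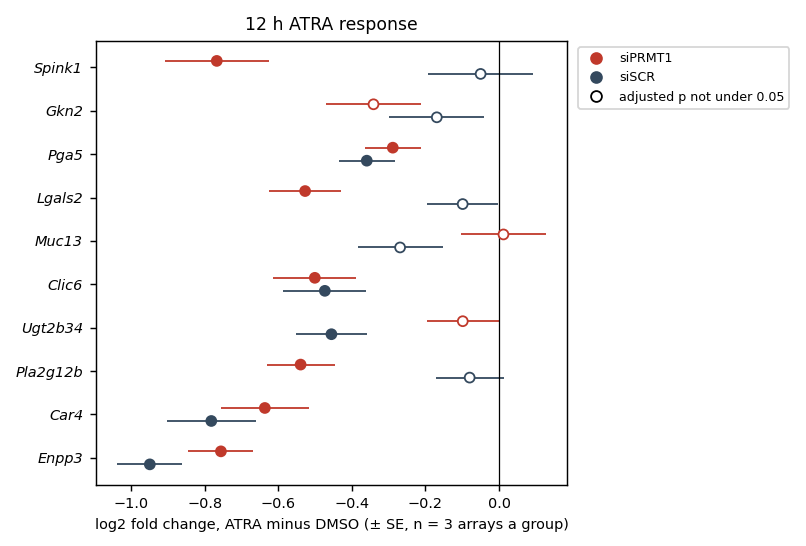
Log2 fold change of ATRA against DMSO after 12 h (horizontal axis) for the 10 genes (vertical axis) in siPRMT1 (red) and siSCR (blue), 3 arrays a group; bars are ± SE, filled points passed the limma test at an adjusted p under 0.05 and open points did not. Of the 20 points 19 lie below 0, from -0.95 for Enpp3 in siSCR, and Muc13 in siPRMT1 lies at 0.012, or at -0.021 after median centring or scaling to one SD.

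The siSCR calls rest on a spread estimated over all 24 arrays. With only the 6 siSCR arrays compared, 3 of the 10 genes fell, Ugt2b34 (limma adjusted p = 0.0365), Car4 (0.0362) and Enpp3 (0.00345), while Pga5 (0.162) and Clic6 (0.118) did not pass, and 1.47% of all genes fell. With only the 6 siPRMT1 arrays, 8 fell, with Gkn2 added (limma adjusted p = 0.00362), where 7.42% of all genes did. In siSCR the first ATRA array was the highest of its group for all 10 genes, and without it 6 fell, with Muc13 added (-0.41, limma adjusted p = 0.0118). In siPRMT1 the third ATRA array was the lowest of its group for 9 of the 10, and 7 still fell without it. Muc13 in siSCR also passed without siSCR DMSO replicate 2 (-0.36, limma adjusted p = 0.0452), Gkn2 in siPRMT1 passed without siSCR undifferentiated replicate 2 (adjusted p = 0.026), and Pga5 in siPRMT1 did not without siPRMT1 DMSO replicate 3 (adjusted p = 0.054).

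Lists set beside the ATRA response showed both directions. Of the 21 visceral endoderm genes 9 fell and 2 rose in siPRMT1, led by Cer1 -2.64 and Lhx1 -1.63, and 8 fell and 2 rose in siSCR, led by Dab2 -0.62 and Hnf4a -0.53. The mean level of the list was 9.73 to 9.78 with ATRA and 10.15 to 10.16 with DMSO in siPRMT1, and 8.84 to 9.06 with ATRA and 8.94 to 9.12 with DMSO in siSCR, and its part in the falls of the 10 genes was not tested. Hnf4a, a nuclear receptor of liver and visceral endoderm, also fell in siPRMT1, by 0.58. Of the intestine genes 2 rose and 1 fell in siPRMT1, and 3 rose and 1 fell in siSCR, and Cdx1, an intestinal homeobox gene and known target of retinoic acid, rose in both (1.20 in siPRMT1 and 0.99 in siSCR). Of the stomach genes Gkn1 (-0.41), Pgc (-0.49) and Sox2 (-0.42) fell in siPRMT1, where Sox2 is also on the list of stem cell genes. Of the 83 family relatives 6 rose and 10 fell in siPRMT1, against 6.05% and 5.94% of all genes, and 15 rose and 5 fell in siSCR, against 11.2% and 12.2%. After median centring the siSCR counts were 10 and 7, after scaling to one SD 10 and 8, and in siPRMT1 4 rose and 10 fell under both. The share of higher calls over all genes moved too. In siSCR it was 47.8% in the fit as reported, 32.79% after centring and 37.27% after scaling. In siPRMT1 it was 50.48%, 42.18% and 41.54%. Pla2g7 fell in both lines (-0.92 in siPRMT1 and -0.78 in siSCR) and Enpp4, a relative of Enpp3, rose in both (0.81 and 1.09).

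DMSO against untreated day 4 embryoid bodies was tested in siPRMT1 only, since in siSCR it crosses the border between arrays. The comparison shares the DMSO and day 4 arrays with those that chose the genes. Any added culture time or handling during the 12 h of treatment cannot be told apart from DMSO itself. In siPRMT1 1 of the 10 genes passed, Car4, at 0.54 ± 0.12 (limma adjusted p = 0.0495), where 0.306% of all genes rose. Its adjusted p ranged from 3.79e-05 to 0.225 over 34 alternatives, of which 14 kept the call, and leaving out any array of the 2 groups raised it to between 0.126 and 0.225. Clic6 (0.48, limma adjusted p = 0.0653) and Lgals2 (0.39, adjusted p = 0.0974) did not pass. Of the 21 visceral endoderm genes 8 rose and 0 fell in the same comparison, with a median of 0.26, against 0.21 for the 10 genes, and 8 rose after quantile normalization, median centring or scaling to one SD too. The mean level of that list was 10.15 to 10.16 over siPRMT1 DMSO arrays and 9.67 to 9.81 over siPRMT1 day 4 arrays, and its part in the value of Car4 was not tested. In siSCR the DMSO arrays lay wholly below the day 4 arrays for 4 genes and wholly above for 3, against 31.1% and 31% of all genes. The differences ran from -1.70 for Gkn2 and -1.08 for Pla2g12b to 0.83 for Clic6, and they cannot be told apart from the border between arrays.

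Other genes of the array had profiles close to those of the 10. Likeness was Pearson's r over the 24 arrays, among 4173 other genes whose group means spanned at least 1 log2 unit, and is a description, since the points share lines, states and the border between arrays. The closest were Foxa2 for Spink1 (0.982), Klb for Gkn2 (0.98), Cldn6 for Pga5 (0.995), Mt1 for Lgals2 (0.985) and Ttr for Muc13 (0.987). For the others they were Ttr for Clic6 (0.994), Lamb1 for Ugt2b34 (0.987), Slc34a2 for Pla2g12b (0.993), Gldc for Car4 (0.966) and Elmo1 for Enpp3 (0.973). The second closest were Slc7a8, Podxl, Retreg1, Hsd17b2, Retreg1, Lgmn, Trpm6, Podxl, Icosl and Nkx6-3, in the same order of genes. Foxa2 is a forkhead factor of endoderm and Cldn6 a tight junction protein. Among the 10 genes themselves the 45 pairs had r from 0.323 (Lgals2 with Car4) to 0.987, with a median of 0.863.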

How the data were processed

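Total RNA, 300 ng a sample, was labelled with the WT Expression kit and hybridised to Affymetrix arrays, per the labels' protocols. The authors deposited 1 value in log2 units per probe set and array (2.14 to 14.5), where the log base was read from the range. Their summarisation and normalization: not given in the sources used here. Of 35556 probe sets, 21789 had 1 gene symbol in the platform annotation, 1621 several and 12146 none; those with 1 were used, the brightest per gene. One limma 3.58.1 fit (R 4.3.3, lmFit, eBayes) of 8 group means to 24 arrays, with 16 residual degrees of freedom, gave effects, and p-values were adjusted by Benjamini-Hochberg over all genes, called under 0.05. The fit was checked on simulated data. The median SE was 0.0932; 3 arrays a group limit the precision, and p-values measure the spread between these arrays only. The 10 genes and all lists were chosen with earlier results of these data known. Named besides them are the 2 most alike genes per member and up to 4 called genes per list and comparison of the largest change. Alternatives covered the replicate block, groups fitted, array normalization, centring and scaling, dim genes, probe sets, variance model, array weights and each array left out. Promoters came from RefSeq (GRCm38.p6), and no probe sequences were used.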

Additional observations from a re-analysis of the deposited data

Results flagged for a closer look

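Some contrasts of the 10 genes ran in opposite directions between groups, with every array of one side moved one way and every array of the other the opposite way, and in none was the difference tested. The siPRMT1 minus siSCR difference of Spink1, the trypsin inhibitor gene, was 2.13 at day 4, 2.84 with DMSO and 2.12 with ATRA, against -0.22 in undifferentiated cells. In undifferentiated cells the highest siPRMT1 array read 6.27 and the lowest siSCR array 6.29, levels that may be near background. There 20% of all genes had all siPRMT1 arrays below the siSCR arrays. The gaps to undifferentiated cells were 2.346 at day 4, 3.052 with DMSO and 2.335 with ATRA. DMSO against untreated day 4 embryoid bodies gave 0.21 in siPRMT1 and -1.70 in siSCR for Gkn2, a gap of 1.908, and 0.20 in siPRMT1 and -1.08 in siSCR for Pla2g12b, a gap of 1.274. The siSCR side of these last values crosses the border between arrays, from which they cannot be told apart.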

How the results depend on the processing

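Counts of genes called over the whole array moved by over 1.5 times as follows, and the cause was not tested. With array weights 7218 genes passed in the knockdown comparison of undifferentiated cells, against 3747 in the fit as reported, 6106 against 3669 at day 4, 8969 against 5632 in siSCR embryoid body formation, 1567 against 4663 for ATRA in siSCR, 7640 against 2391 for ATRA in siPRMT1 and 2536 against 92 for DMSO in siPRMT1. With only the groups compared 544 passed for ATRA in siSCR and 135, against 646, for the difference between lines. Median centring gave 405 for that difference. For DMSO in siPRMT1, centring gave 47, scaling to one SD 49, the trend and robust variance 145, and leaving out the 6 siSCR arrays that stood apart 286. Leaving out each array gave 2924 to 4130, 2504 to 4034, 11605 to 13492 and 12417 to 14271 for the knockdown in the 4 states. The ranges were 6852 to 8655 and 4661 to 5973 for embryoid body formation in siPRMT1 and siSCR, 1737 to 2676 and 3816 to 4870 for ATRA in the same lines, 304 to 897 for the difference between lines and 29 to 132 for DMSO. The share of calls that were higher moved under centring from 61.92% to 82.88% for the knockdown at day 4, from 55.53% to 74.95% for siPRMT1 embryoid bodies and from 47.8% to 32.79% for ATRA in siSCR, so counts of direction over all genes depend on the centring. It moved from 47.46% to 59.67% and from 45.87% to 59.79% for the knockdown with DMSO and ATRA, and from 66.3% to 87.23% for DMSO in siPRMT1.

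Of the 10 genes, changes near 0 that passed in no alternative turned sign. Muc13 with ATRA in siPRMT1 was -0.021 after centring and after scaling, and -0.075 to 0.092 without single arrays. Without single arrays Spink1 with ATRA in siSCR ran from -0.20 to 0.045, Pla2g12b there from -0.17 to 0.030, Ugt2b34 in siPRMT1 from -0.20 to 0.041 and Enpp3 with DMSO in siPRMT1 from -0.045 to 0.0035. The difference between lines of Clic6 was 0.0019 after scaling, 0.038 with array weights and -0.11 to 0.10 without single arrays. Calls of the 10 genes changed with median centring (Muc13 with ATRA in siSCR passed, limma adjusted p = 0.0466) and array weights (Ugt2b34 there did not, 0.0535, and Gkn2 in siPRMT1 did, 0.00434). The difference between lines passed for Lgals2 (0.0442) and Ugt2b34 (0.0401) after quantile normalization, and for Spink1 and Pla2g12b without the dimmest 25% of genes (0.0373 and 0.0401) or with the trend and robust variance (0.0239 and 0.0263). The number of genes that fell with ATRA was 6 to 8 in siPRMT1 and 5 to 6 in siSCR without single arrays. Over genes, the deviations of same-numbered replicates from their group means correlated by -0.502 to 0.508, mostly under 0.1. With 3 arrays a group these values cannot settle whether the numbers pair the arrays. The labels do not say what the numbers mark, and the fit as reported did not pair by them. With the replicate block 3756, 3653, 13155 and 13969 genes passed for the knockdown in the 4 states, 8253 and 5602 for embryoid body formation, 2366 and 4708 for ATRA in siPRMT1 and siSCR, 588 for their difference and 92 for DMSO. Under it 7 of the 10 genes fell with ATRA in siPRMT1 and 5 in siSCR, and Car4 with DMSO had a limma adjusted p of 0.0679. No detection calls were used, so dim values such as those of Spink1 in undifferentiated cells may be near background.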
